A study of Homo sapiens with 20 samples.

Results

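The secreted guidance factor genes SEMA3A, SEMA3C, SEMA3D and SEMA3E on chromosome 7 and the ephrin gene EFNA5 on chromosome 5 were examined through the acetylation of histone H3 at lysine 27 (H3K27ac) around them. A peak belonged to a gene when it overlapped a fixed hg19 window around that gene by at least 1 bp, which gave 1063 of the 458811 H3K27ac peaks of the series, or 0.232%. The windows were chr7:80300001-80650000 for SEMA3C, chr7:82950001-83330000 for SEMA3E, chr7:83550001-84000000 for SEMA3A, chr7:84000001-84900000 for SEMA3D and chr5:106200001-107100000 for EFNA5. The SEMA3A and SEMA3D windows adjoin, and 0 peaks were counted in 2 windows. The 5 loci were chosen by their H3K27ac peaks in these same libraries, with GFP against SMARCB1, so the values of that contrast are given as a description with no test. The rule also covers H3K4me3, H3K4me1 and SMARCA4, which were not analysed here.

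All samples came from G401, a single human rhabdoid tumour cell line, and every group, the controls included, had the genotype SMARCB1(-/-). SMARCB1 is a core subunit of the SWI/SNF complexes, which move nucleosomes. Induction with doxycycline switched on GFP in the control group and SMARCB1 in the other, with 2 H3K27ac libraries in each and 1 rabbit monoclonal antibody throughout. The labels name no time of induction and do not say whether replicates were separate cultures, so the spread between them may be technical. The comparison asks how acetylation at these genes differs once the missing subunit is supplied.

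Class 3 semaphorins are secreted proteins that steer growing axons, migrating neural crest cells and endothelial cells. Most bind a neuropilin, NRP1 or NRP2, which passes the signal to an A-type plexin, while SEMA3E can bind the plexin PLXND1 directly. EFNA5 is an ephrin held to the cell surface by a lipid anchor, and it signals to EphA receptor tyrosine kinases on touching cells. H3K27ac marks active promoters and active enhancers, and long runs of such peaks are often found around developmental genes.

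The start regions of these genes differ in sequence, and they are shown here as background. A relation between these sequences and acetylation was not tested. Of the 5 genes, 4 had entries in the RefSeq promoter table of build GRCh38.p14, 6 entries in all, each 300 bases from 250 before to 50 after a start. All were on the minus strand and are printed 5′ to 3′ along the gene, with each CG dinucleotide in capitals. For a gene with 2 entries, the entry with more CG dinucleotides is printed.

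EFNA5, chr5:107670888-107671187: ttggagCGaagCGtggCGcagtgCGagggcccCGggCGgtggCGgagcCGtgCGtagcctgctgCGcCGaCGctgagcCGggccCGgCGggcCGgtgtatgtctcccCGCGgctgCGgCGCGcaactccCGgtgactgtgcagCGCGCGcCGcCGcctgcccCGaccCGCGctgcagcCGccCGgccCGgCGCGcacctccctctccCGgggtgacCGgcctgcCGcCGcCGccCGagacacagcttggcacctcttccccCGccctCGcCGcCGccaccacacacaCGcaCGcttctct

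SEMA3C, chr7:80919002-80919301: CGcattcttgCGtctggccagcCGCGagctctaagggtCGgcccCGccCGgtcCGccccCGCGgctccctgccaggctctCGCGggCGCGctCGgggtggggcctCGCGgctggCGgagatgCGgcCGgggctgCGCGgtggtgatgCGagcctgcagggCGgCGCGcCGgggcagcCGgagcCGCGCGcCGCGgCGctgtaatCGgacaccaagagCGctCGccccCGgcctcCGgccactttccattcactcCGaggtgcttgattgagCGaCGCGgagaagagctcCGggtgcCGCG

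SEMA3D, chr7:85187007-85187306: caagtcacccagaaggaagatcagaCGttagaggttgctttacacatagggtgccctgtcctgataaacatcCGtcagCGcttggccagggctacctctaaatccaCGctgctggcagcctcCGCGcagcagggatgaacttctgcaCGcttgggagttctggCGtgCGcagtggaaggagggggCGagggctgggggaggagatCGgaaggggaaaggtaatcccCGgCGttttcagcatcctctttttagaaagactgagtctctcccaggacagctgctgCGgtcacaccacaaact

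SEMA3E, chr7:83649090-83649389: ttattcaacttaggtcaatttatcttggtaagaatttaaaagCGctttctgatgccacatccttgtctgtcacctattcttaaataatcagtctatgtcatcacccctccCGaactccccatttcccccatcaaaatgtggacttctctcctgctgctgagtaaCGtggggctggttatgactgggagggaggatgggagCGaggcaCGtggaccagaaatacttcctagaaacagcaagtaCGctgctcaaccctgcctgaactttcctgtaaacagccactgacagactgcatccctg

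The EFNA5 sequence held 47 CG dinucleotides and the SEMA3C sequence 46, more than 97.6% and 97.1% of the 35116 promoters in the table. SEMA3D held 14, the median of all promoters, and SEMA3E held 6. The second SEMA3C entry held 2 and the second SEMA3E entry held 1. The motif TGANTCA, the same on both strands, which AP-1 factors bind, was in 0 of the 6 entries and in 7.71% of all promoters. These coordinates belong to GRCh38.p14 and cannot be set beside the hg19 peaks, so whether a given peak lies on a promoter, exon or intron was not determined.

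Depth was not stated in the lists and was read from the fragments expected by the peak caller at a summit without enrichment. This background was 1.82 and 3.74 fragments in GFP replicates 1 and 2, and 4.78 and 3.89 in SMARCB1 replicates 1 and 2. GFP replicate 1 was thus the shallowest library. In 3000 peaks drawn from each list, the weakest peak at that background had 7 fragments and a fold enrichment of 2.83 in GFP replicate 1, 12 fragments and 2.74 in GFP replicate 2, 14 and 2.55 in SMARCB1 replicate 1, and 11 and 2.46 in SMARCB1 replicate 2. Fold enrichment here is the authors' value, the summit over the local background, and it ranks peaks within a list. Its scale differed among lists. The top 10% of peaks began at a fold of 14.5 in GFP replicate 1 and 10.1 in GFP replicate 2. In SMARCB1 replicates 1 and 2 they began at 8.09 and 7.57. A lower fold in a SMARCB1 list is therefore not read as weaker acetylation.

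Each of the 5 windows had more sequence under H3K27ac peaks in both SMARCB1 libraries than in either GFP library. With SMARCB1 the share of the window under peaks was 47.9% ± 3.70 (SD, n = 2) at SEMA3C, 11.02% ± 1.12 at SEMA3D, 6.89% ± 1.49 at EFNA5, 4.31% ± 1.15 at SEMA3A and 4.22% ± 1.12 at SEMA3E. SEMA3A and SEMA3E did not differ beyond their spread, and the SEMA3D and EFNA5 libraries did not overlap. With GFP the share was 30.3% ± 2.03 at SEMA3C, 0.960% ± 0.123 at SEMA3E and 0.833% ± 0.0804 at EFNA5, the last pair overlapping, and no peak was listed at SEMA3A or SEMA3D. Covered length was likewise higher in both SMARCB1 libraries in 56.0% of the 500 kb tiles of the genome that held a peak, and in 5.82% of tiles both GFP libraries had no peak and both SMARCB1 libraries had one. Because the loci were chosen on this contrast, nothing is read from 5 of 5 and 2 of 5 windows against those shares. More cells carrying the mark and more of the mark in each cell cannot be told apart in these bulk samples. The SMARCB1 lists were also longer, with 145533 and 135472 peaks against 98251 and 79555, and the part of list length and depth in these differences was not tested.

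**Figure D1:**
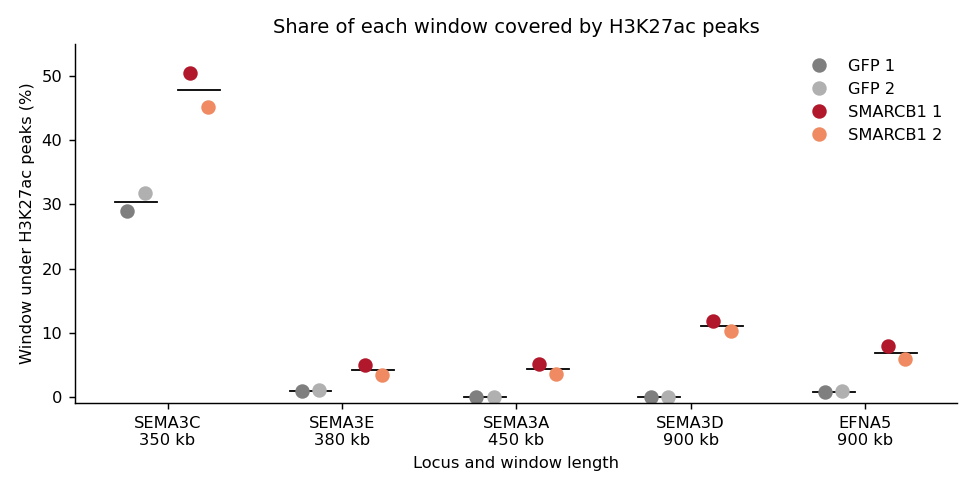
Share of each window under H3K27ac peaks (vertical axis, percent) at the 5 loci (horizontal axis, with window length). Each point is 1 library and each line the mean of 2; SEMA3C stands at 28.9% to 50.5%, and the GFP points of SEMA3A and SEMA3D lie at 0.

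SEMA3A encodes the prototype repulsive semaphorin, which acts through NRP1 and A-type plexins. No peak was listed in its window in either GFP library, and each SMARCB1 library had 36, so the groups did not overlap. The peaks covered 23.0 kb and 15.7 kb of the 450 kb window in SMARCB1 replicates 1 and 2. They were modest peaks: the highest fold enrichment was 7.08 in SMARCB1 replicate 1 and 6.75 in replicate 2, at percentiles 87.5 and 87.8 of their lists, and no peak was in the top 10% of either. They lay between 81.4 and 311 kb from the window start, with most of the covered length in the bins from 100 to 150 kb (6.90 and 4.22 kb) and from 250 to 300 kb (9.39 and 7.62 kb). The last 139 kb of the window held no peak in any library.

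Overlapping peaks of the 4 libraries were joined into merged regions, and those with a peak from each SMARCB1 library but from no GFP library were called gained. Lost regions were the reverse, and common regions had a peak from all 4. Across the genome 17.5% of merged regions were gained, 3.94% lost and 16.7% common; the loci were chosen on the same contrast, so nothing is read from their counts against these shares. SEMA3A had 16 gained, 0 lost and 0 common regions among 45. The strongest by the lower of its SMARCB1 folds, chr7:83670673-83671553, reached 7.08 with 41 fragments and 6.14 with 29 fragments. The next, chr7:83819591-83827484, was also the widest at 7894 bp, with fold enrichments of 5.57 and 6.75 and 32 summit fragments in each SMARCB1 library. After it came chr7:83654006-83654713 with 6.41 and 5.53. The nearest GFP peak to the strongest region was 391185 bp away. To set these against the depth of the controls, the ratio of summit fragments to background in each SMARCB1 library was multiplied by the background of each GFP library. By the lower SMARCB1 ratio, 8 of the 16 regions would reach the fewest fragments of a peak in both GFP libraries, here called limits. This sets an expected count against the lowest count among sampled peaks, so whether a peak would be called was not tested. The mean difference in covered length, 19.4 kb, was 12.7 kb with equal numbers of peaks, 11.98 kb with only peaks of -log10 q 5 or more and 10.9 kb at a fold of at least 4.

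SEMA3D guides endothelial and neural crest cells in heart and vessel development, and its window gave the clearest blocks. Its window held 0 peaks in both GFP libraries, 92 peaks over 106 kb in SMARCB1 replicate 1 and 80 peaks over 92.0 kb in SMARCB1 replicate 2. Strong peaks were among them, with a highest fold enrichment of 13.6 and 11.7 at percentiles 97.8 and 97.2, and 11 and 13 peaks in the top 10% of their lists. The acetylated sequence fell into blocks that both SMARCB1 libraries shared: 25.6 and 23.8 kb lay from 150 to 200 kb after the window start, 18.9 and 17.3 kb from 250 to 300 kb, and 23.5 and 20.8 kb from 600 to 650 kb. The SEMA3A window ends where this window starts. The 250 kb of this window next to SEMA3A held 43.8 and 38.6 kb under peaks with SMARCB1. Which gene the blocks belong to was therefore not determined. A single peak in SMARCB1 replicate 1 was 13742 bp wide, and the widest in replicate 2 was 8950 bp. The last 200 kb of the window held no peak in any library. The RefSeq promoter entry puts SEMA3D on the minus strand, so the gene begins toward that empty end, but whether its start lies in the empty stretch was not determined.

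Gained regions numbered 48 of 91 at SEMA3D, and their median length of 1333 bp was above the 547 to 671 bp of the other 4 loci. The strongest was chr7:84267602-84270543, with a fold enrichment of 11.3 from 66 fragments in SMARCB1 replicate 1 and 11.7 from 56 fragments in replicate 2. Next came chr7:84177907-84180961 with 11.8 and 11.3, and chr7:84634094-84647845, 13752 bp long, with 11.3 and 11.3. The last of these lay 1354606 bp from the nearest GFP peak. With both GFP libraries at 0, 39 of the 48 regions had an enrichment that would reach the limits of both GFP libraries.

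**Figure D2:**
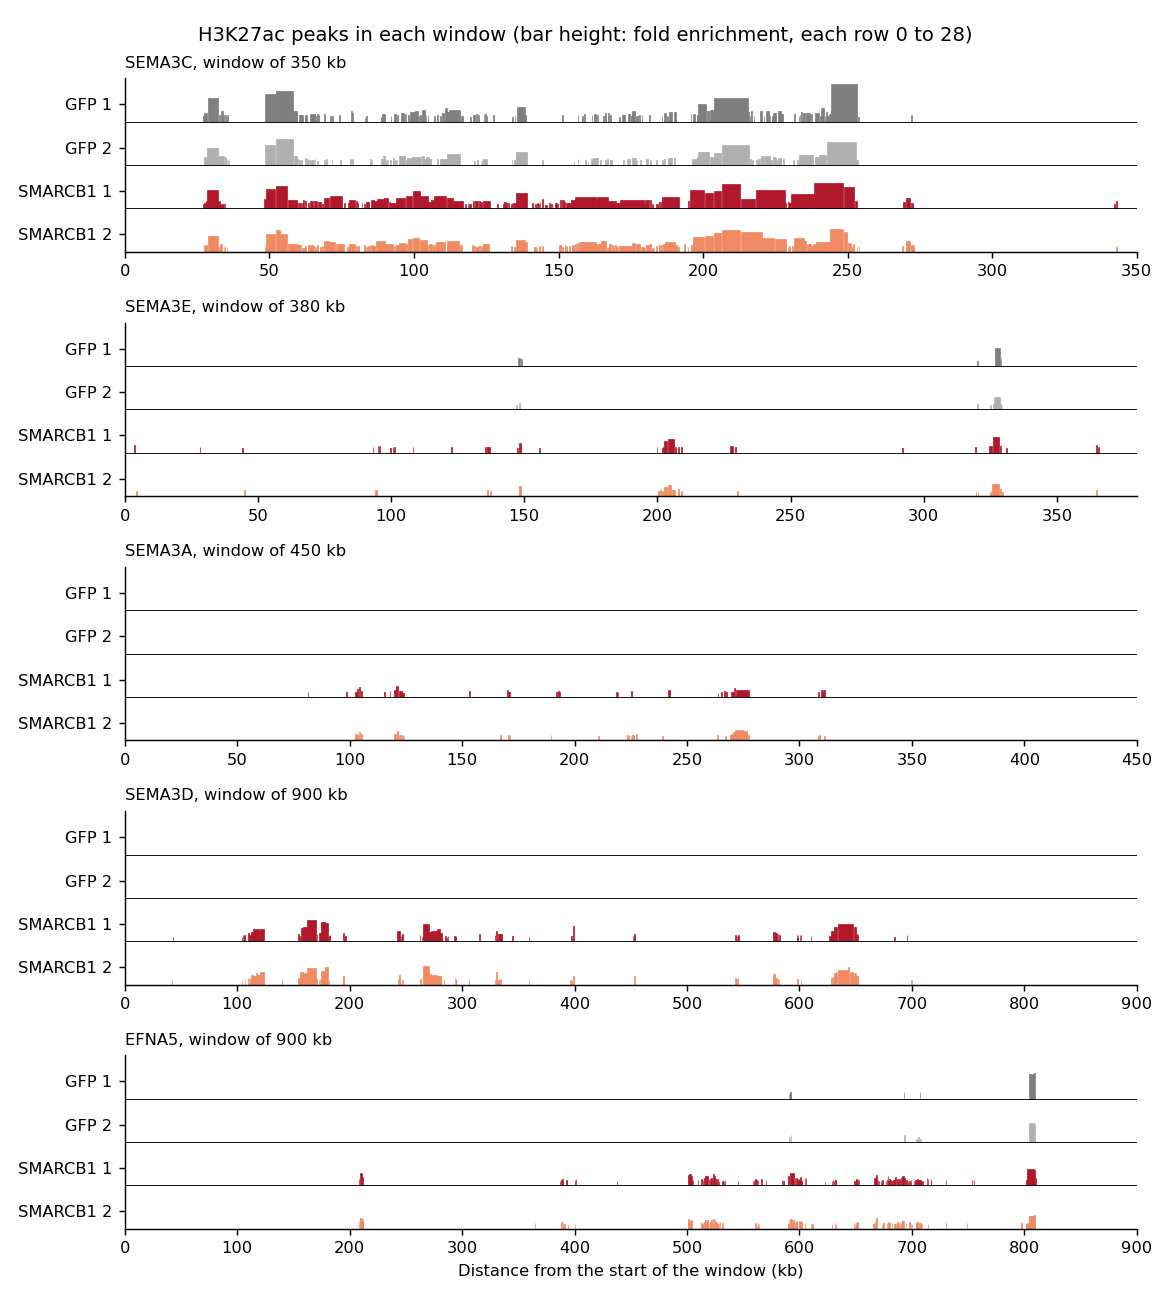
H3K27ac peaks in the 5 windows by distance from the window start (horizontal axis, kb), 1 row per library, with bar height giving fold enrichment on a scale of 0 to 28 in each row and a thin outline on each bar. SEMA3A and SEMA3D are empty in both GFP rows, SEMA3D has shared SMARCB1 blocks near 150 to 200, 250 to 300 and 600 to 650 kb, and SEMA3C is occupied in all 4 rows.

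SEMA3E, a ligand of PLXND1 that limits vessel growth, already had a few peaks in control cells. Its window held 6 and 8 peaks with GFP and 35 and 22 with SMARCB1, over 3.32 and 3.98 kb against 19.0 and 13.0 kb. The SMARCB1 libraries were both higher, by 12.4 kb in the mean, and they differed from each other by more than the GFP libraries did. That difference was 7.56 kb with equal numbers of peaks, 7.81 kb with only peaks of -log10 q 5 or more and 7.26 kb at a fold of at least 4. The strongest peak of the window was shared by all 4 libraries, in the region chr7:83274526-83278476, with fold enrichments of 11.3 and 8.02 in the GFP and 10.3 and 7.48 in the SMARCB1 libraries. The other 2 regions common to all 4 libraries were chr7:83097369-83099022 and chr7:83278522-83279162. New peaks gathered elsewhere: from 200 to 250 kb after the window start GFP had 0 kb in both libraries and SMARCB1 had 7.33 and 6.28 kb. The strongest gained region lay there, chr7:83153855-83156878, with 8.59 and 7.16 and a GFP peak no nearer than 54832 bp, next to chr7:83151709-83153708 with 7.75 and 5.73. The next by strength, chr7:83314659-83315167, reached 4.73 and 3.89. In all 7 of 40 regions were gained, and 7 would reach the limits of both GFP libraries.

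SEMA3C, which signals through NRP1 and NRP2 and is known for its part in shaping the cardiac outflow tract, was densely acetylated in every library. Its window held 128 and 114 peaks with GFP and 117 and 141 with SMARCB1, so peak number did not separate the groups. Covered length did: 101 and 111 kb with GFP against 177 and 158 kb with SMARCB1, a ratio of the means of 1.58. Peaks were wider with SMARCB1, at medians of 543 and 521 bp in the window against 352 and 409 bp for the controls. The medians of the whole lists were 402 and 379 bp with SMARCB1 and 379 and 415 bp for the controls. The extra sequence lay mainly from 50 to 200 kb after the window start, where the 50 kb bin beginning at 150 kb had 14.5 and 15.7 kb with GFP and 41.8 and 36.5 kb with SMARCB1. The first 50 kb had 8.42 and 9.12 kb against 8.28 and 7.30 kb, and so did not share in it.

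The highest fold at SEMA3C stood at percentiles 98.0 and 98.8 with GFP, and at 99.2 in each SMARCB1 library. The strongest SEMA3C regions were common to all 4 libraries. The first, chr7:80530528-80553559, had fold enrichments of 24.4 and 14.8 with GFP and 16.3 and 14.7 with SMARCB1, from 68, 69, 96 and 71 fragments. The second, chr7:80352245-80359926, had 19.8 and 16.5 against 14.8 and 14.1, and the third, chr7:80495619-80528694, had 15.2 and 12.7 against 15.6 and 14.3. Gained regions numbered 21 of 80, and they were small and close to existing acetylation, with a median length of 547 bp and a median distance of 512 bp to the nearest GFP peak. The 3 strongest of them, chr7:80570121-80571599, chr7:80451983-80452406 and chr7:80450303-80450970, lay 185, 455 and 355 bp from a GFP peak. Only 6 of the 21 were over 1 kb from one, and 12 of the 21 would reach the limits of both GFP libraries. Of the sequence under peaks in both GFP libraries, 89.3% was also under peaks in both SMARCB1 libraries.

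EFNA5 encodes a ligand of the EphA receptors that sets up topographic maps in the developing visual system. Its window held 8 and 9 peaks with GFP and 125 and 106 with SMARCB1, covering 6.99 and 8.01 kb against 71.5 and 52.5 kb. The mean covered length was 8.27 times as high with SMARCB1. The mean difference, 54.5 kb, was 34.9 kb with only peaks of -log10 q 5 or more and 31.5 kb at a fold of at least 4. The most intense acetylation was again shared: chr5:107008462-107009468 had fold enrichments of 16.6 and 11.8 with GFP and 9.79 and 8.81 with SMARCB1, and chr5:107002459-107008246 beside it had 16.2 and 12.035 against 10.7 and 8.38. Another shared region, chr5:106791264-106795323, was weaker in the GFP lists, with 4.60 and 4.86 against 8.09 and 6.14. The SMARCB1 peaks lay mostly from 500 to 750 kb after the window start, and the bin from 500 to 550 kb had 0 kb in both GFP libraries and 15.9 and 13.7 kb with SMARCB1.

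EFNA5 had 59 gained regions among 136, the highest number of the 5 windows. They were short, with a median length of 671 bp and none above 1839 bp, and many weak peaks made up the total: 51 of 125 and 49 of 106 SMARCB1 peaks had a fold above the median of their list. The strongest was chr5:106408941-106410774 with 8.09 and 6.96 from 47 and 33 fragments, 379767 bp from a GFP peak. The others named by the rule were chr5:106868235-106869112 with 6.91 and 6.75, and chr5:106700435-106701674 with 6.91 and 6.34. Of the 59 regions, 54 were over 1 kb from a GFP peak, and 38 would reach the limits of both GFP libraries.

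Over the 5 loci, 151 of 392 merged regions were gained, 0 were lost and 30 were common to all 4 libraries. The count of lost regions was 20 when libraries had to share peaks by a reciprocal overlap of 50%, and 4 without GFP replicate 1. At GFP depth, 104 of the 151 gained regions would reach the limits of both control libraries by their expected count. Whether a peak would be called there was not tested. The share of gained regions was 38.5% at the 5 loci, 52.7% at SEMA3D, 43.4% at EFNA5, 35.6% at SEMA3A, 26.3% at SEMA3C and 17.5% at SEMA3E. Over all merged regions of the genome, 17.5% were gained and 3.94% lost, so the SEMA3E share was near that of the genome. The loci were chosen on this contrast, so nothing is read from the other shares. By base pairs, 2.93 kb at SEMA3C and 0.141 kb at SEMA3E were under peaks in both GFP libraries and neither SMARCB1 library, and 0 kb at the other 3 loci. Sequence under peaks in both SMARCB1 and neither GFP library came to 83.8 kb at SEMA3D, 39.9 kb at SEMA3C, 33.8 kb at EFNA5, 11.5 kb at SEMA3A and 6.20 kb at SEMA3E. The count of gained regions was 266 without SMARCB1 replicate 1 and 318 without SMARCB1 replicate 2. With all 4 libraries, 132 regions had a peak in SMARCB1 replicate 1 alone and 58 in SMARCB1 replicate 2 alone. With the strongest 20000 peaks of each list it was 23, and the mean difference in covered length was then 58.2 kb at SEMA3D and 37.7 kb at SEMA3C but 7.58 kb at EFNA5, 3.65 kb at SEMA3E and 2.02 kb at SEMA3A.

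**Figure D3:**
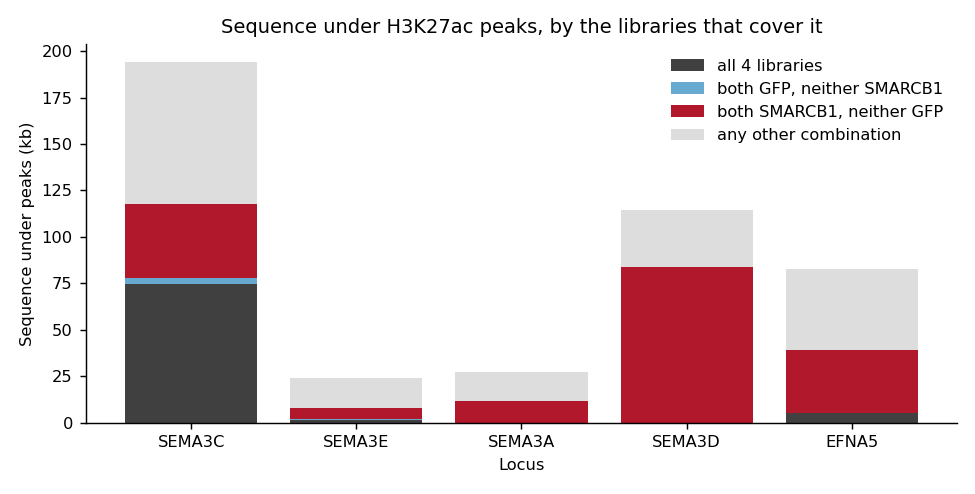
Sequence under H3K27ac peaks (vertical axis, kb) at each locus, split by the libraries that cover it. SEMA3D has 83.8 kb in both SMARCB1 and neither GFP library and none in all 4, while SEMA3C has 74.7 kb in all 4.

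The SMARCB1 replicates agreed unequally among the loci. The shared length over the combined length of their peaks was 0.790 at SEMA3C, 0.731 at SEMA3D, 0.508 at EFNA5, 0.420 at SEMA3A and 0.410 at SEMA3E, against 0.630 over all peaks of both lists. The loci with the stronger peaks, SEMA3C and SEMA3D, were above the value of the whole lists and the other 3 below it. Between the GFP replicates the value was 0.650 at SEMA3C, 0.581 at EFNA5 and 0.411 at SEMA3E, against 0.677 over all peaks. Ranked within their own lists, 73 of 117 and 89 of 141 SMARCB1 peaks of SEMA3C and 54 of 92 and 47 of 80 of SEMA3D were above the list median of fold. At SEMA3A, 13 of 36 and 11 of 36 were.

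**Figure D4:**
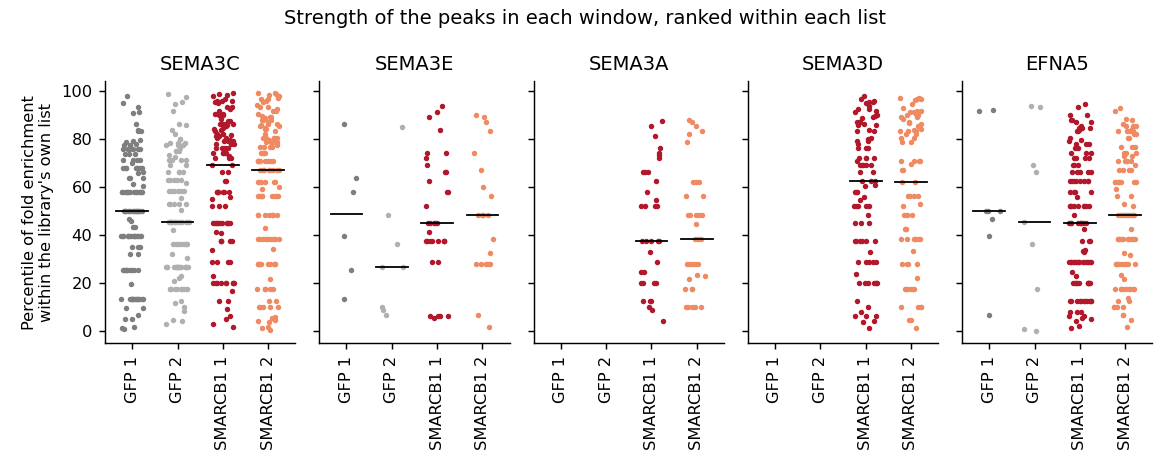
Fold enrichment of each peak in the 5 windows as a percentile of its own library's list (vertical axis), with 1 column per library and a line at the median. With SMARCB1 the strongest SEMA3D peaks stand at percentiles 97.8 and 97.2, and the strongest SEMA3A peaks at 87.5 and 87.8.

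The acetylated stretches had empty surroundings on several sides. No library had a peak in the 250 kb above SEMA3C, above SEMA3E or above SEMA3D. The stretch above SEMA3E includes the 220 kb between the SEMA3E and SEMA3A windows. SEMA3A and SEMA3D were not isolated from each other, as their windows adjoin. The 250 kb above SEMA3A had 0 GFP peaks and 35 and 33 SMARCB1 peaks, over 43.8 and 38.6 kb. The 250 kb below SEMA3D had 0 GFP peaks and 16 and 21 SMARCB1 peaks, over 12.9 and 10.4 kb. Below SEMA3C, 250 kb held 3.11 and 3.88 kb under peaks with GFP and less, 2.67 and 2.305 kb, with SMARCB1. The 250 kb below EFNA5 had 0 GFP peaks and 7 and 4 SMARCB1 peaks, and the 250 kb above it 0 GFP peaks and 13 and 8 SMARCB1 peaks. Below SEMA3E, 250 kb held 2.59 and 2.19 kb under peaks with GFP and 14.7 and 11.5 kb with SMARCB1. The higher coverage with SMARCB1 was thus not limited to the window. Whether those peaks belong with SEMA3E was not determined.

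The authors' deposited tables of enhancer regions join neighbouring peaks of the same lists, leaving out some peaks near gene starts. At SEMA3C in GFP replicate 2, the longest joined region held 113 of the 114 peaks of the window. The tables give the same blocks at another scale by construction and are no separate evidence for them. A window with no listed GFP peak was bound to have 0 joined regions with GFP. At SEMA3C the longest joined region was 102 and 225 kb with GFP and 204 and 200 kb with SMARCB1, and it carried a super-enhancer mark in all 4 tables. At EFNA5 the longest was 2.28 and 14.5 kb with GFP, with no mark, and 50.5 and 49.0 kb with SMARCB1, with a mark in both. The SEMA3D window had 0 joined regions with GFP and 15 in each SMARCB1 table, 3 and 2 of them marked, the longest of 42.6 and 43.0 kb. SEMA3A had 0 with GFP and 9 and 8 with SMARCB1, with 1 mark in replicate 1 and 0 in replicate 2. No SEMA3E region was marked in any table. The marks rest on a read signal that regions with the same identifier share in these tables, and they are therefore given only as deposited. Marks were also more common genome-wide with SMARCB1, at 5.55% and 5.02% of joined regions against 3.37% and 3.35% with GFP.

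The partners of these ligands were examined in 14 further windows over 17 genes, set by hand around the known hg19 positions of other class 3 semaphorins, neuropilins, plexins, A-type ephrins and EphA receptors. Of these windows, 9 held a peak in some library. Covered length was higher in both SMARCB1 libraries in 5 of them, lower in 1 and overlapping in 3, and with 5 of 9 the share was near the 56.0% of tiles across the genome. For the lower direction the share of tiles was 16.8%.

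Both neuropilin genes were among the 5. NRP1, the coreceptor of SEMA3A, had 3 and 2 peaks with GFP and 24 and 20 with SMARCB1, covering 5.82 and 5.39 kb against 13.7 and 10.5 kb. NRP2 had no peak with GFP and 10 and 3 with SMARCB1, over 4.49 and 1.43 kb. The other 3 were SEMA3G, PLXNA1, a signalling plexin, with 15.9 and 7.70 kb against 31.3 and 20.1 kb, and the receptor tyrosine kinase gene EPHA2 with 45.2 and 43.5 kb against 53.8 and 49.1 kb. PLXNA2 was lower, with 30.1 and 26.0 kb against 21.6 and 14.3 kb. PLXND1, the receptor of SEMA3E, overlapped between the groups with 28.3 and 19.9 kb against 27.2 and 22.1 kb, as did the windows of SEMA3B with SEMA3F and of EFNA1 with EFNA3 and EFNA4. PLXNA4, EPHA3, EPHA4, EPHA5 and EPHA7 had 0 peaks in all 4 libraries. By the change in the covered share of the window, from 2 libraries each, the windows nearest the median of the 5 loci (6.05 percentage points) were SEMA3G at 5.26, NRP1 at 3.24 and NRP2 at 1.97 points. This measure depends on window length. The SEMA3G window was 50 kb, 21.7% covered with GFP, and differed by 2.63 kb in mean covered length. EFNA5, the locus at the median, had 900 kb, 0.833% and 54.5 kb.

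**Figure D5:**
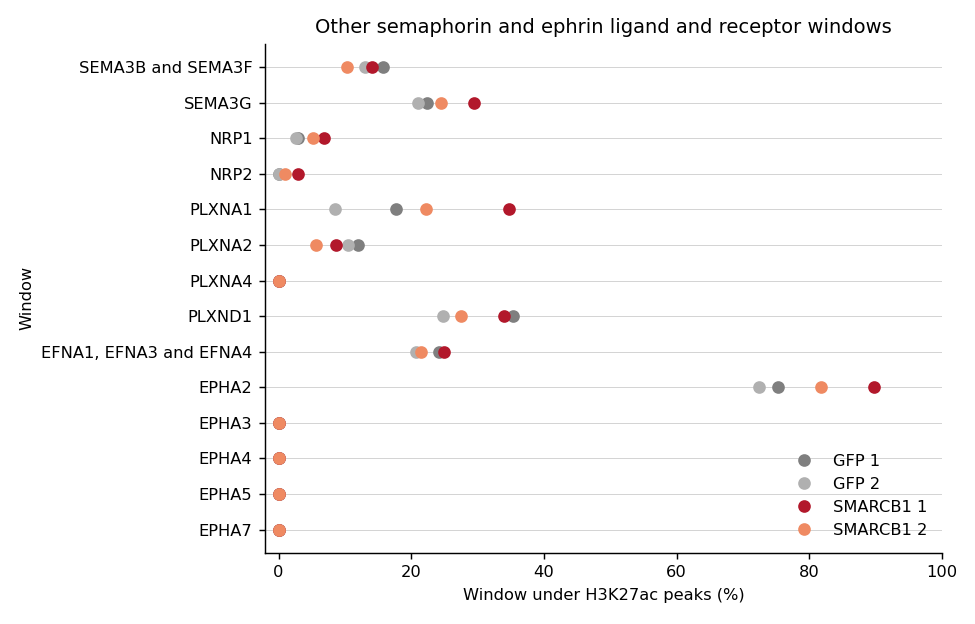
Share of 14 ligand and receptor windows under H3K27ac peaks (horizontal axis, percent), 1 point per library. The NRP1 and NRP2 points with SMARCB1 lie above those with GFP, PLXNA2 lies the other way, and PLXNA4 and the windows from EPHA3 to EPHA7 lie at 0 in every library.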

How the data were processed

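H3K27ac peak lists of 4 libraries and 4 tables of joined regions were used, from 20 samples in 10 groups. The authors called peaks with MACS2 on each library against hg19, per the names in the deposited files, which also name a filter whose rule is not stated. BWA 0.7.12-r1039, SAMtools and bedtools stand in the submitters' processing notes. The fold enrichment (a ratio to local background) and the -log10 p and q of each peak are deposited values. The joined-region tables were matched to libraries by name, and 100% of their region edges were peak edges of that library (at most 1.01% of starts were in another list). Their 8 read-signal columns were not used.

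Peaks overlapping by 1 bp were merged into regions. Summit fragments and background were solved from fold and p with the caller's formulas, to within 0.001 in -log10 p. This gave values for all 1063 member peaks, and for at least 99.7% of 3000 peaks drawn per list. SMARCB1 replicate 1 needed a scale of 0.855. Region merging was tested on simulated data of well separated intervals, which does not cover dense runs of peaks like those at SEMA3C. Named regions were at most 3 gained, lost and common regions per window by the lowest fold of the libraries that define them. The members, windows and lists were chosen with earlier results of these data known. The 14 partner windows were set by hand; each of the 17 genes lay on the chromosome of its own window in RefSeq. Scripts ran in Python 3.11.15 (matplotlib 3.10.9, scipy 1.17.1, pandas 2.3.3, numpy 2.4.6). Alternatives were stricter or shorter lists, shifted windows, other overlaps and tiles, and leaving out each library.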

Additional observations from a re-analysis of the deposited data

How the results depend on the processing

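The difference in covered length was positive in all 50 values from the alternatives, which count each setting at each of the 5 loci, leaving out each library included. At SEMA3A and SEMA3D both GFP libraries had 0 peaks, so stricter or shorter lists and left-out libraries could not make it negative. The 5 loci were also chosen on this contrast, so nothing is read from the sign. At a -log10 q of at least 5 the difference was 7.81 kb at SEMA3E, 11.98 kb at SEMA3A, 88.3 kb at SEMA3D and 34.9 kb at EFNA5. With equal numbers of peaks it was 7.56 kb at SEMA3E, 12.7 kb at SEMA3A and 36.5 kb at EFNA5. With a fold of at least 4 it was 7.26 kb at SEMA3E, 10.9 kb at SEMA3A, 85.2 kb at SEMA3D and 31.5 kb at EFNA5. With the strongest 20000 peaks it was 37.7 kb at SEMA3C, 3.65 kb at SEMA3E, 2.02 kb at SEMA3A, 58.2 kb at SEMA3D and 7.58 kb at EFNA5. Gained regions numbered 75, 81, 60 and 23 under those settings in the same order, and 51 with peaks within 1 kb joined. They ranged from 157 to 318 when 1 library was left out, the highest without SMARCB1 replicate 2. Shorter lists and joined peaks hold fewer regions by construction. Lost regions numbered 0 in the main count, 1 at the stricter q, 2 with equal numbers, 2 at the fold of 4, 20 with a reciprocal overlap of 50%, and from 0 to 4 without 1 library. The share of tiles filled from no GFP peak was 3.51% with tiles of 1 Mb and 8.76% with tiles of 250 kb. Widening or narrowing the windows by 50 kb moved each covered-length difference by less than its SD between replicates. No paired analysis was possible because the results describe loci chosen on this contrast and none comes from a test, although both groups carry the same replicate numbers.

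Depth limits the GFP side. In the shallowest library the weakest sampled peak at a background of 1.82 fragments had 7. Of the 151 gained regions, 104 had an enrichment in both SMARCB1 libraries that would reach the limits of both GFP libraries. This sets an expected count against the lowest sampled count, so whether a peak would be called was not tested. The number of libraries, 2 in each group, limits the precision.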

Other observations

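Between the SEMA3C and SEMA3E windows, 2300 kb of chromosome 7 hold in RefSeq HGF, CACNA2D1 and PCLO, in that order. That stretch had 57 and 43 peaks with GFP and 83 and 73 with SMARCB1, over 55.4 and 56.3 kb against 73.9 and 62.7 kb. The 250 kb of it next to SEMA3E held 2.59 and 2.19 kb with GFP and 14.7 and 11.5 kb with SMARCB1. HGF is the ligand of the MET receptor, and which of these genes the peaks lie at was not determined.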
